A study of Mus musculus with 14 samples.

Results

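The lysosomal genes described here were 47 genes in 3 families of function. They comprised 16 genes of the vacuolar proton pump (V-ATPase), 12 cathepsins, and 19 other genes for lysosomal enzymes, membrane proteins and regulators. Rows were taken by gene symbol, and the list of symbols was drawn up with earlier results of these data known. All 47 were found among the 24980 genes of the dendritic cell table and among the 17118 genes of the monocyte and macrophage table, and all 47 passed the filter on low values in both comparisons.

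The lysosome is the acidic compartment in which cells break down proteins, lipids and sugars taken up from outside or delivered from within. The V-ATPase acidifies it: its cytosolic V1 sector hydrolyses ATP, and its membrane-embedded V0 sector carries protons into the lumen, where the low pH activates cathepsins and glycosidases. In dendritic cells and macrophages these enzymes also cut antigens and the invariant chain for presentation on MHC class II, and the transcription factor TFEB is known to drive many lysosomal genes through a short E-box element in their promoters.

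Bulk RNA sequencing covered 14 libraries, each from a sorted population of mouse bone marrow. Dendritic cells (GFP-high, MHCII-high, CD11c-high, negative for Gr-1 and B220) came from mice given vehicle alone (4 libraries) or the TLR1/2 agonist PAM3CSK4, a synthetic lipopeptide (4 libraries). Monocytes (GFP-high, CD115+, B220-, both low and high for Gr1) and macrophages (GFP-negative, MHCII-high, CD169+, negative for Gr-1 and B220) were taken at baseline, with 3 libraries each. The extraction protocol gives the mice of all groups as Cx3cr1gfp/+, which carry GFP in place of 1 copy of Cx3cr1, whereas the design text calls the treated mice wildtype. Dose, interval after dosing, age, sex and number of mice are not given in the labels. Whether each library stands for its own mouse is not labelled either, so the p-values rest on a spread between libraries that may be only technical.

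Values, deposited under the name FPKM, were treated as CPM, a gene's sequenced fragments relative to its library's total. Listed genes accounted for 35.04% to 57.9% of that scale per library, and 1 CPM corresponded to 28.2 to 75.2 of the smallest steps between values. In bulk libraries such as these, fewer cells of a type and less RNA per cell cannot be told apart. Markers of the sorted types were checked as summed CPM. The 10 dendritic cell markers summed to 7927 to 10634 CPM with vehicle but 749 to 4828 CPM with PAM3CSK4. Most of that sum was Cd74 (4272 to 6097 and 337 to 2494 CPM) and H2-Ab1 (1878 to 3155 and 194 to 1401 CPM). All 10 had a change below 0 (32.7% of all genes tested), 2 were called lower (2.29%), and 5 were lower without overlap (4.68%). Itgax (170 to 271 and 27.5 to 283 CPM) and Irf8 (214 to 490 and 149 to 476 CPM) overlapped. With PAM3CSK4, replicate 4 was the lowest for these markers and the highest for 13 neutrophil markers, at 12133 CPM against 599 to 1064 CPM with vehicle. The 7 plasmacytoid dendritic cell markers summed to 27.7 to 248 CPM with PAM3CSK4 and to 19.7 to 31.2 CPM with vehicle, and the 9 erythroid markers to 85.6 to 907 CPM and 17.7 to 155 CPM. The 8 monocyte markers summed to 7446 to 9027 CPM in monocytes and 397 to 894 CPM in macrophages. The macrophage libraries held 497 to 8062 CPM of 9 measured plasma and B cell markers, against 10.4 to 21.2 CPM in monocytes, and also more of the NK and T cell list (94.4 to 266 against 10.4 to 22.6 CPM). In the macrophage libraries the 14 macrophage markers summed to 340 to 533 CPM, which overlapped the 143 to 493 CPM of monocytes. Of 13 macrophage markers tested 12 had a change above 0 (median 1.48), with 5 called higher and 1, Adgre1, called lower. Of all genes tested there 57.4% had a change above 0 and 12.8% were called higher. Csf1r, counted here with the monocyte markers, read 33.6, 24.9 and 52.9 CPM in macrophages against 860, 328 and 490 CPM in monocytes. How much RNA of the macrophage libraries came from macrophages was not tested. Marco was below 1 CPM in every macrophage and monocyte library, and Siglec1, which encodes the CD169 of the sort gate, stood at 18.9, 18.6 and 25.2 CPM there against 34.7, 2.20 and 14.1 CPM in monocytes. Of the 10 dendritic cell markers 3 were higher in macrophages than in monocytes (Xcr1, Clec9a and Zbtb46, log2 changes of 5.64, 2.27 and 1.82) and 1 was lower (Cd209a, -4.21), with overlapping sums of 1848 to 3583 and 632 to 3329 CPM. Of 12 neutrophil markers tested 7 were higher and 4 lower there, with sums of 1652 to 4079 and 2485 to 3493 CPM.

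PAM3CSK4 raised 3 of the 47 genes in dendritic cells and lowered none past the threshold (limma's moderated test on log2(CPM + 1), Benjamini-Hochberg adjusted p under 0.05 over 11377 genes). The 3 were Ctsl (cathepsin L, a cysteine protease), Atp6v0d1 (the d subunit of the V0 sector) and Atp6v1a (the catalytic A subunit of the V1 sector). Of all genes tested, 5.12% were called in either direction, 2.82% as higher and 2.29% as lower. At an unadjusted p under 0.05, 9 of the 47 passed, against 24.9% of all genes. The median log2 change of the 47 was 0.28, beside 0.20 over all genes tested. A count of 3 in 47 lies near that background.

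**Figure D1:**
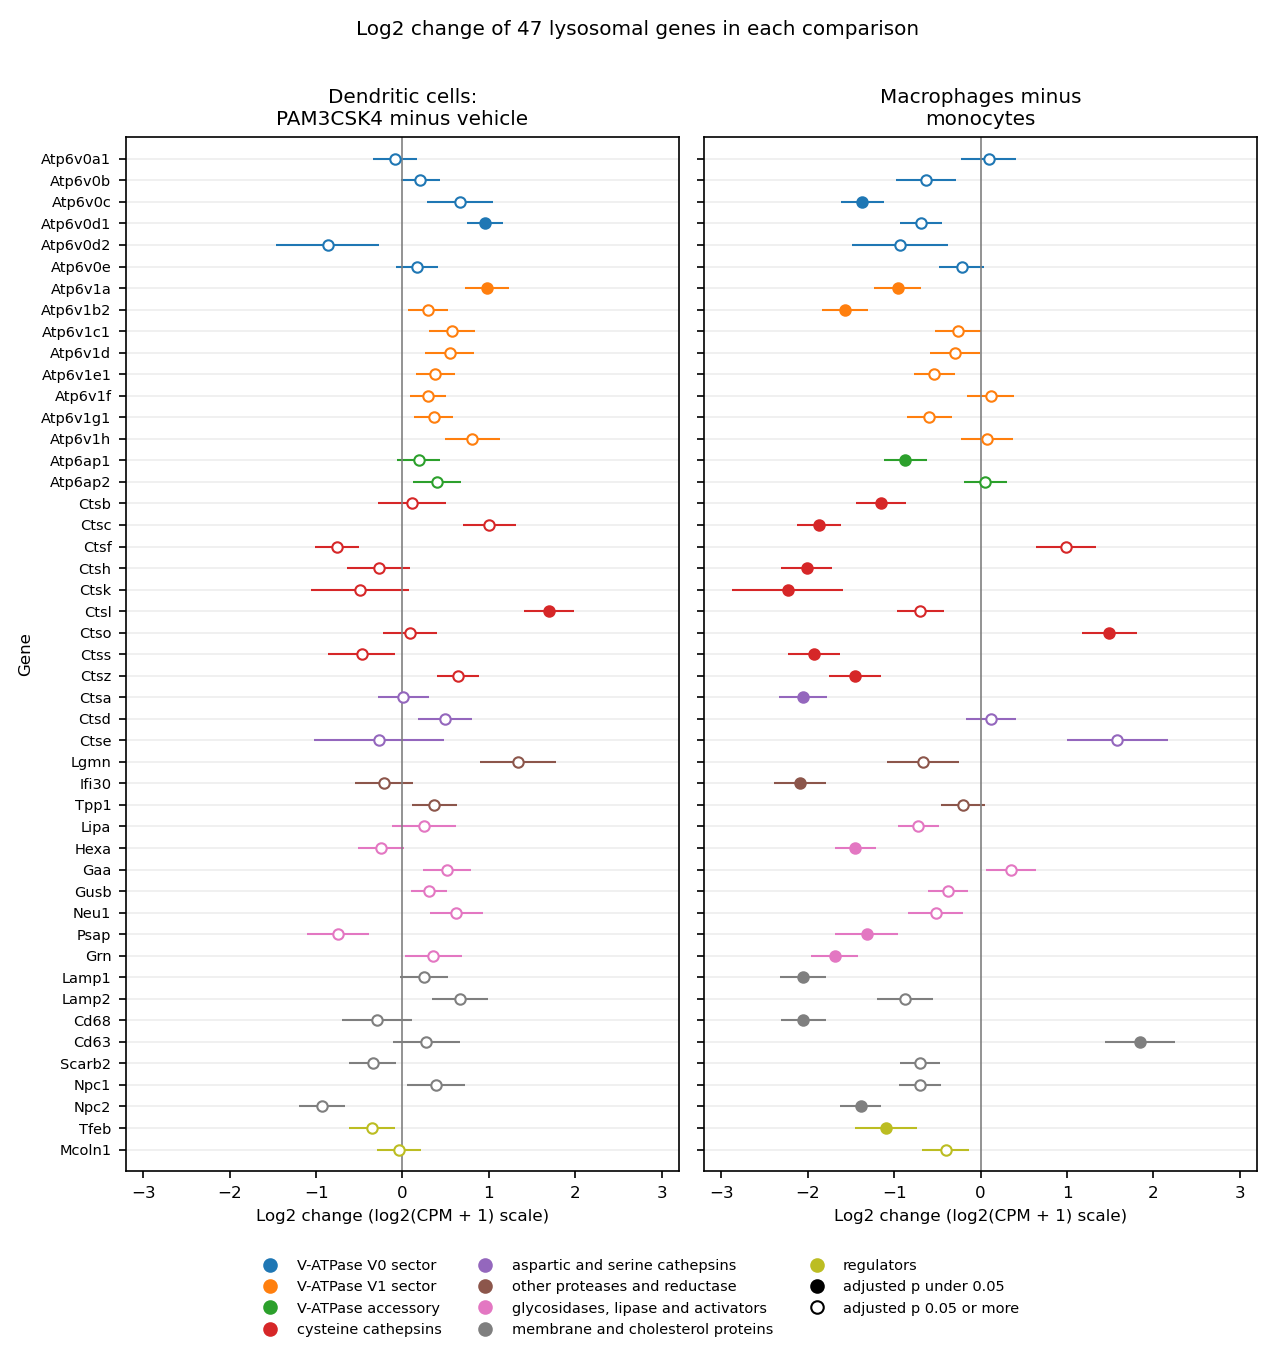
Log2 change with its standard error (x axis, log2(CPM + 1) scale) for each of the 47 genes (y axis, coloured by role) in dendritic cells, PAM3CSK4 minus vehicle (left), and in macrophages minus monocytes (right). Filled points have an adjusted p under 0.05: there are 3 on the left, all above 0, and 21 on the right, of which 19 lie below 0.

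Ctsl (chr13:64361890-64370521, mm10, minus strand) stood at 14.8, 9.44, 16.3 and 10.2 CPM in vehicle replicates 1 to 4 and at 37.5, 72.4, 39.0 and 30.2 CPM in PAM3CSK4 replicates 1 to 4. The lowest treated library lay above the highest vehicle library, and treated replicate 2 was well above the other treated libraries. The means were 12.7 ± 3.38 and 44.8 ± 18.8 CPM (SD, n = 4 each), a 3.53-fold difference, with a log2 change of 1.70 ± 0.29 (SE; adjusted p = 0.00839). The change was 1.85 without treated replicate 4, the library with the high neutrophil markers, and 1.44 without treated replicate 2, and the call held with each of the 8 libraries left out. Without any filter on low values the adjusted p rose to 0.108, so the call was lost there.

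Atp6v0d1 (chr8:105524461-105566065, minus strand) measured 38.4, 50.5, 43.7 and 50.4 CPM with vehicle and 76.0, 112, 91.6 and 81.3 CPM with PAM3CSK4. The groups did not overlap and the spread within each was small. Means of 45.8 ± 5.84 and 90.1 ± 15.7 CPM (SD, n = 4 each) gave a 1.97-fold difference and a log2 change of 0.96 ± 0.21 (adjusted p = 0.0238). Its paralogue Atp6v0d2, the d subunit form known from osteoclasts and macrophages, did not follow it. Atp6v0d2 measured 18.9, 25.5, 77.8 and 28.9 CPM with vehicle and 22.7, 6.38, 60.3 and 9.45 CPM with PAM3CSK4, which gave a change of -0.87 ± 0.60 on the log2 scale (adjusted p = 0.381). Replicate 3 of both groups was its highest library, and the groups overlapped across most of their range.

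Atp6v1a (chr16:44085404-44139260, minus strand) measured 18.1, 34.9, 34.2 and 24.4 CPM with vehicle and 42.7, 68.0, 51.4 and 57.0 CPM with PAM3CSK4. All treated libraries lay above all vehicle libraries, though by a narrower margin. The log2 change was 0.98 ± 0.25 (adjusted p = 0.0471), close to the threshold. The Atp6v0d1 call was lost when any of 6 of the 8 libraries was left out (adjusted p up to 0.0693) and without a filter (0.0804), and the Atp6v1a call when any of 7 was left out (up to 0.111), without a filter (0.186), with median centring (0.0524) and without the intensity trend (0.0548). The changes themselves stayed between 0.74 and 1.03 for Atp6v0d1 and between 0.76 and 1.096 for Atp6v1a. Summed levels of the dendritic cell, monocyte, neutrophil, plasmacytoid dendritic cell and erythroid markers differed with treatment as well (the 8 monocyte markers at 1465 to 2338 CPM with vehicle and 870 to 1239 CPM with PAM3CSK4), and their part in these changes was not tested.

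The other V-ATPase genes moved by less than their spread allowed the test to call. All 8 V1 subunits had a log2 change above 0, between 0.30 and 0.98, and this held under each of the 3 other scalings tried; of all genes tested 67.3% had a change above 0. Atp6v1h, a regulatory subunit, measured 8.17, 20.4, 13.6 and 13.6 CPM with vehicle and 21.03, 37.6, 28.6 and 14.8 CPM with PAM3CSK4 (log2 change 0.81 ± 0.32, adjusted p = 0.150). Atp6v1c1, the C subunit at the junction of the sectors, measured 26.3, 42.4, 42.0 and 30.3 CPM and then 43.9, 71.7, 63.1 and 35.9 CPM (0.57 ± 0.27, adjusted p = 0.206). For both, treated replicate 4 fell inside the vehicle range. Of the 16 V-ATPase genes 14 had a change above 0 and 2 were called, with a median of 0.37, but 11, 12 or 14 of them stayed above 0 once libraries were centred on their median, quantile normalized or rescaled to a common total. Those scalings lowered the median change of all genes by 0.22, 0.18 and 0.13. Of the remaining V0 and accessory genes, Atp6v0c, the proteolipid of the proton-carrying ring, had a change of 0.66 ± 0.38, and Atp6v0a1, Atp6v0b, Atp6v0e, Atp6ap1 and Atp6ap2 lay between -0.09 and 0.40. As a share of all listed CPM the 16 genes came to 0.148% to 0.171% with vehicle and 0.170% to 0.209% with PAM3CSK4, where the ranges overlapped slightly.

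**Figure D2:**
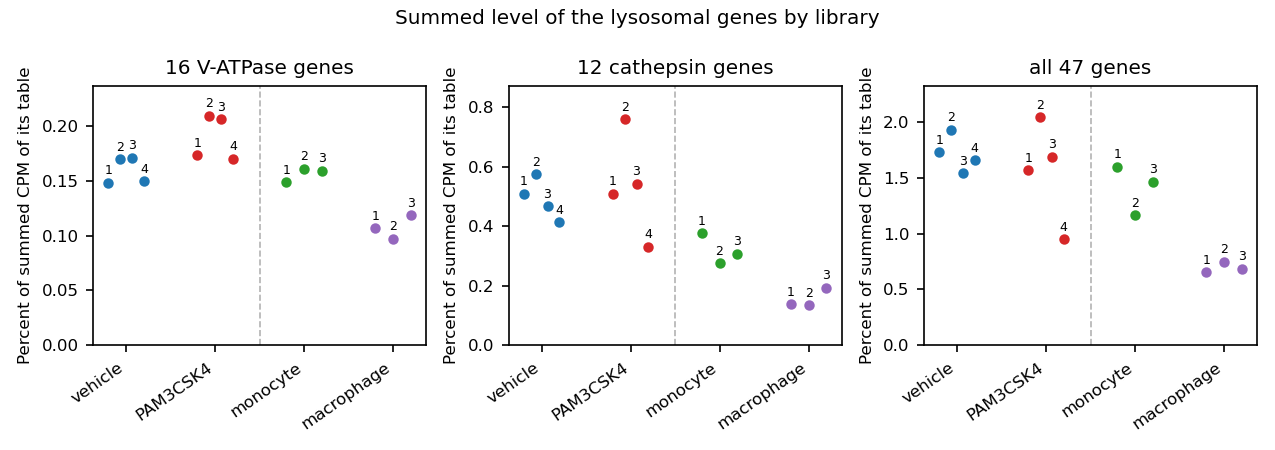
Summed CPM of the 16 V-ATPase genes, the 12 cathepsins and all 47 genes as a percent of the summed CPM of each library's table (y axes, from 0), with 1 numbered point per replicate. The dashed line parts the 2 tables, which were made separately; macrophages (0.0972% to 0.118% for the V-ATPase) lie below monocytes (0.149% to 0.161%) and treated replicate 4 lies lowest among dendritic cells for all 47 genes (0.952%).

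Among the cathepsins, Ctsl was the 1 called gene of 12. Ctsc (cathepsin C, which activates granule serine proteases) measured 126, 179, 164 and 129.6 CPM with vehicle and 196, 563, 252 and 285 CPM with PAM3CSK4, without overlap (log2 change 1.01 ± 0.31, adjusted p = 0.0778). Ctsz (cathepsin Z, a carboxypeptidase) measured 167, 231, 165 and 228 CPM and then 262, 396, 361 and 234 CPM, where treated replicate 4 lay just above the highest vehicle library (0.64 ± 0.24, adjusted p = 0.134). Ctsf (cathepsin F) was near the low end, at 1.72, 1.93, 3.81 and 3.06 CPM and then 0.915, 1.20, 0.925 and 1.33 CPM, all treated libraries lying below all vehicle libraries (-0.76 ± 0.26, adjusted p = 0.102). Over the 47 genes 5 had treated libraries entirely above vehicle and 2, Ctsf and Npc2, entirely below. Over all genes tested these shares were 10.1% and 4.68%, so 5 and 2 of 47 lie near the background.

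Ctsl, Ctsk and Ctss are close relatives within the cysteine cathepsins, known respectively from broad lysosomal proteolysis, from bone matrix breakdown and from invariant chain processing. Ctsk measured 93.3, 96.9, 244 and 120.3 CPM with vehicle and 139, 33.0, 285 and 49.9 CPM with PAM3CSK4, for a change of -0.49 ± 0.57 (adjusted p = 0.615). Ctss measured 260.1, 335, 342 and 263 CPM and then 222, 433, 247 and 88.3 CPM, a log2 change of -0.47 ± 0.39 (adjusted p = 0.466). The vehicle libraries of both fell within the range of the treated ones, while Ctsl separated. Ctsk and Atp6v0d2 were highest in replicate 3 of each group, and both were lowest in treated replicate 2. The other 6 cathepsins, Ctsa, Ctsb, Ctsd, Ctse, Ctsh and Ctso, had changes from -0.28 to 0.49, and none was called. The cathepsins as a set split around 0, with 7 of 12 changes above it and a median of 0.05, and 4, 4 or 5 above it when rescaled, centred or quantile normalized.

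Lgmn (legumain, an asparaginyl endopeptidase that processes antigens and cathepsins) had the highest log2 change of the 47 after Ctsl, with a wide spread among treated libraries. It measured 118, 182, 153 and 148 CPM with vehicle and 243, 939, 520.1 and 169 CPM with PAM3CSK4. Treated replicates 1 to 3 were above every vehicle library and treated replicate 4 was inside their range. The log2 change of 1.34 ± 0.44 did not pass (adjusted p = 0.0964), and without treated replicate 4 it was 1.72 with an adjusted p of 0.00971. The other proteolysis genes were Ifi30, the lysosomal thiol reductase, at 216 to 351 and 115 to 367 CPM, and Tpp1, a tripeptidyl peptidase, at 33.9 to 51.9 and 40.0 to 78.0 CPM.

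Of 7 hydrolase and activator genes, none was called. Psap (prosaposin, the precursor of the sphingolipid activator proteins) measured 2209, 3182, 2318 and 2918 CPM with vehicle and 1867, 2249, 1956 and 735 CPM with PAM3CSK4 (log2 change -0.74 ± 0.36, adjusted p = 0.221). Treated replicate 2 lay just above the lowest vehicle library and treated replicate 4 far below the rest, and without that library the change was -0.38. Neu1 (a sialidase) measured 19.0, 21.8, 16.9 and 21.3 CPM and then 15.7, 37.3, 30.9 and 49.4 CPM (0.62 ± 0.30, adjusted p = 0.224). Here treated replicate 4 was the highest library and treated replicate 1 the lowest. The remaining 5 were Gaa, Gusb, Grn, Lipa and Hexa, with log2 changes from -0.25 to 0.51.

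Npc2, which hands cholesterol to Npc1 inside the lysosome, measured 241, 303, 350.01 and 329 CPM with vehicle and 184, 192, 186 and 95.5 CPM with PAM3CSK4. All treated libraries lay below all vehicle libraries. The log2 change was -0.93 ± 0.26 (adjusted p = 0.0622), and it passed under the 3 other scalings, each of which lowered the median change of all genes (adjusted p down to 0.0171). Npc1, its membrane partner, lay at 63.0 to 109.9 CPM with vehicle and 50.5 to 149 CPM with PAM3CSK4. The membrane proteins Lamp1, Lamp2, Cd63, Cd68 and Scarb2 had changes between -0.35 and 0.67 and were not called. The regulators moved little: Tfeb lay at 13.6 to 28.9 and 11.7 to 19.4 CPM (-0.35 ± 0.26), and Mcoln1, the lysosomal calcium channel TRPML1, at 12.6 to 16.1 and 9.83 to 21.6 CPM (-0.04 ± 0.25).

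**Figure D3:**
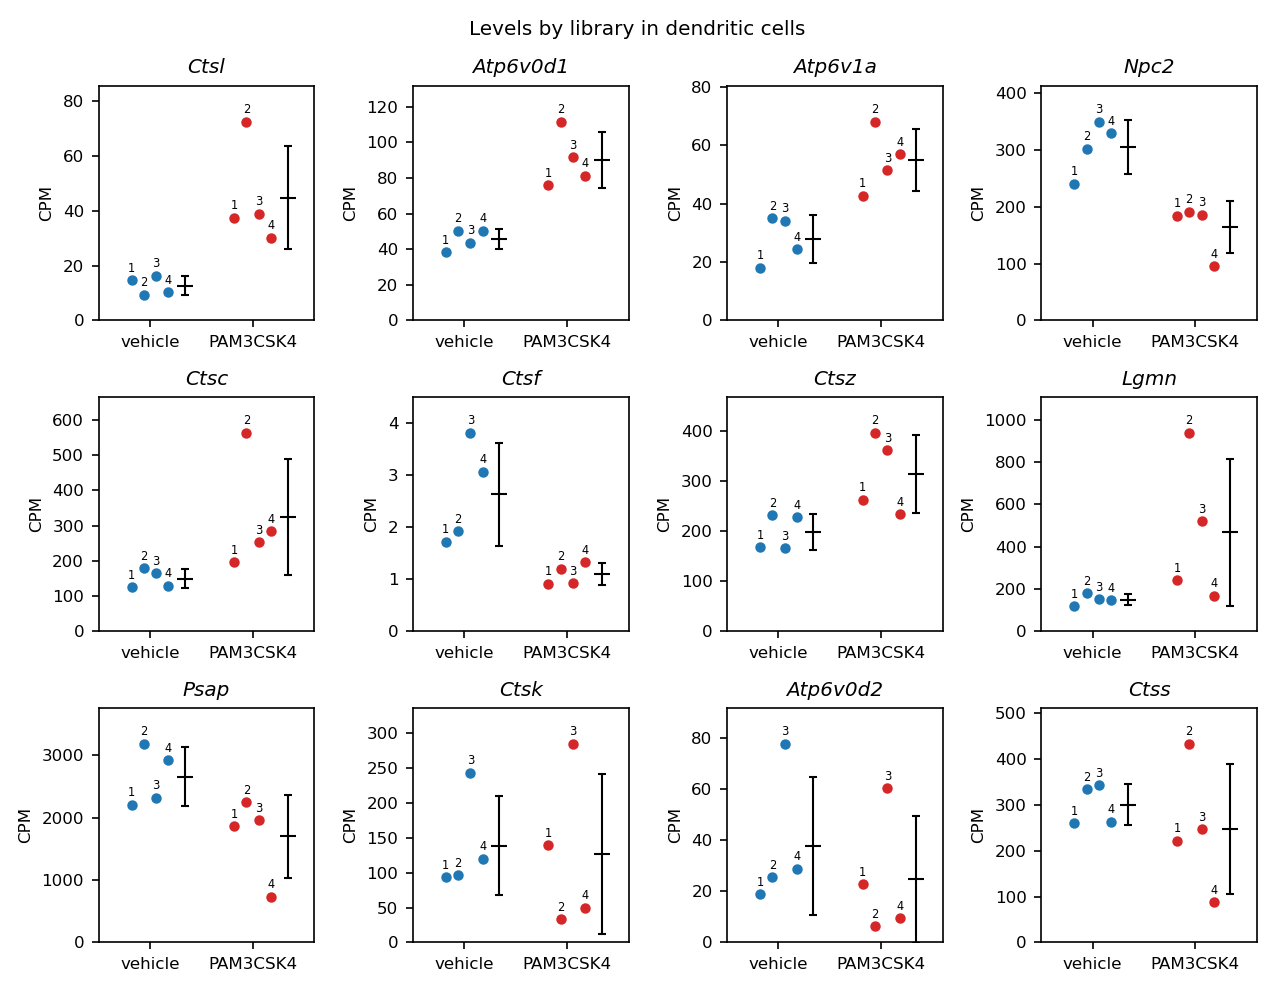
CPM (y axes, from 0) of 12 genes in each dendritic cell library, with replicate numbers beside the points; black bars give the mean and SD of the 4 libraries (the lower end for Atp6v0d2 with PAM3CSK4 is cut at 0). Ctsl, Atp6v0d1 and Atp6v1a separate upwards and Npc2 and Ctsf downwards, while Ctsk, Atp6v0d2 and Ctss overlap.

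The libraries differed among themselves across the set. Vehicle replicate 1 was the lowest vehicle library for 33 of the 47 genes, and vehicle replicate 2 the highest for 26. All listed genes together were also lowest in vehicle replicate 1, at 350368 CPM against 464918 to 482656 CPM, and as a share of that total the 47 genes stood at 1.73% there, within the 1.54% to 1.93% of the other vehicle libraries. Treated replicate 4 was the lowest treated library for 27 genes, also as a share (0.952% against 1.57% to 2.04%), and treated replicate 2 the highest for 30. The 14 macrophage markers summed to 2029 CPM in treated replicate 2, against 353 to 876 CPM in the other treated libraries and 791 to 1347 CPM with vehicle; their part in these differences was not tested. Treated replicate 4 was nonetheless the highest treated library for 6 genes, among them Neu1 and Ctse (cathepsin E), which read 53.0 CPM there and 2.59 to 3.66 CPM in the other treated libraries.

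**Figure D4:**
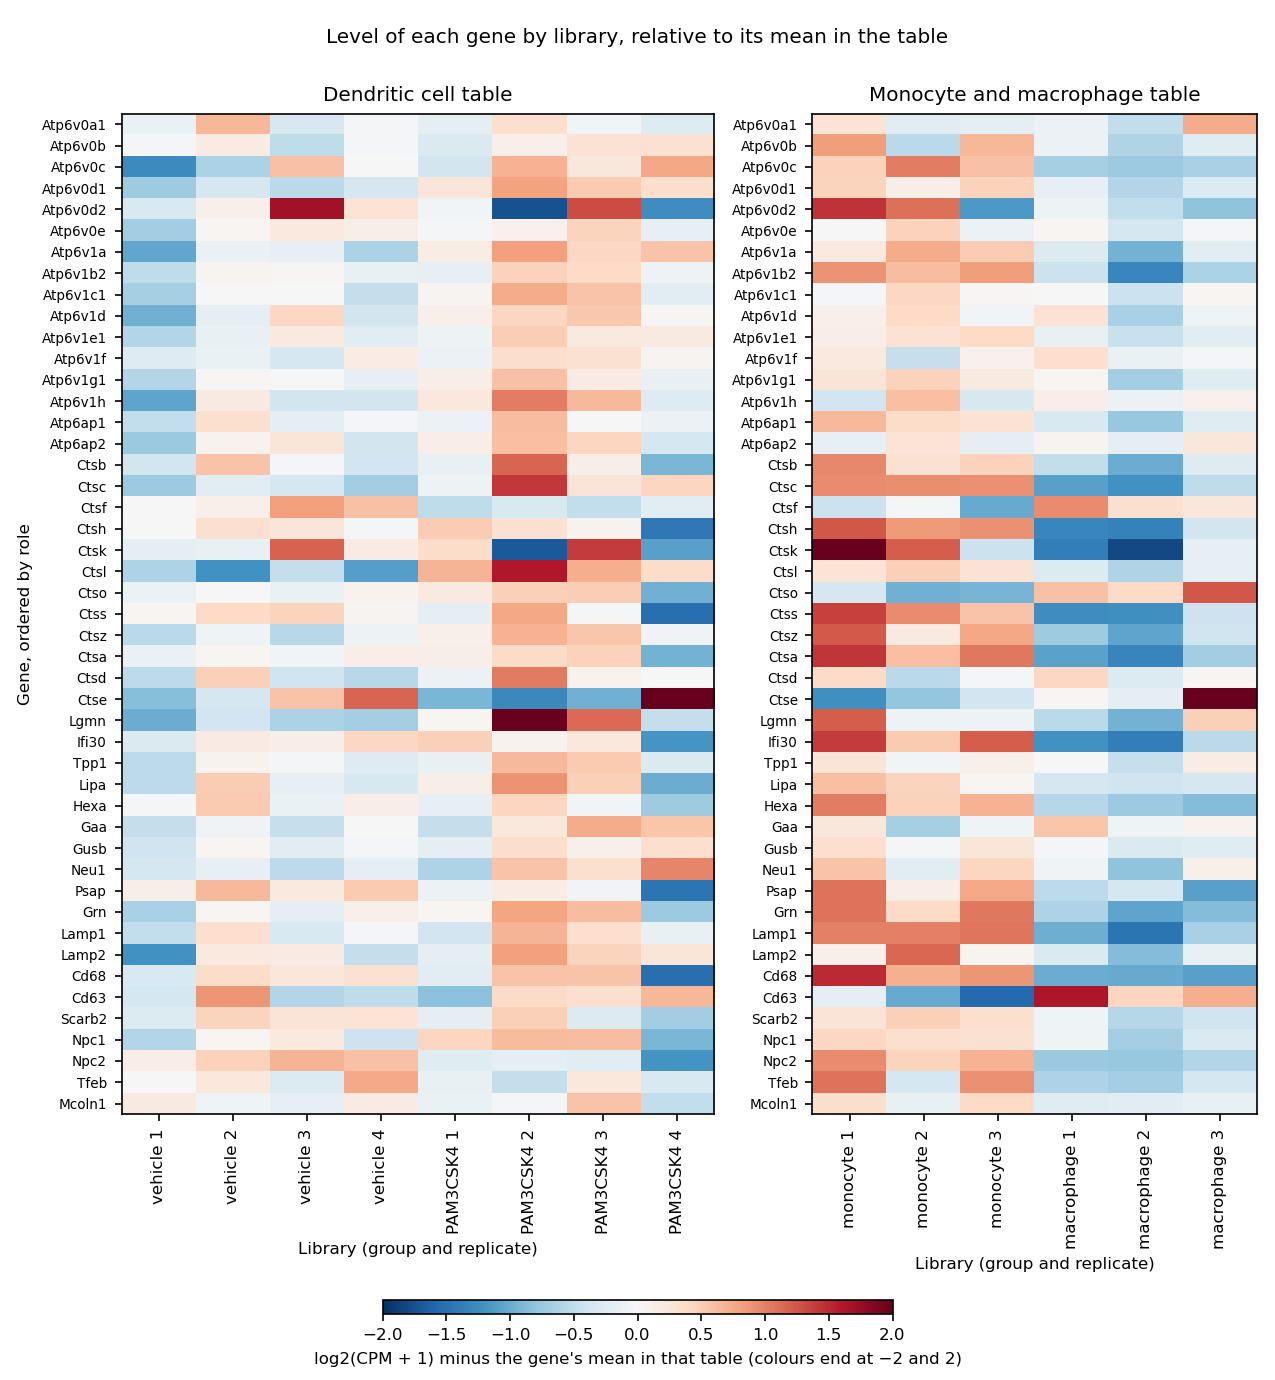
Level of each of the 47 genes (rows, ordered by role) in each library (columns) as log2(CPM + 1) minus the gene's mean in its table; red is above and blue below that mean, and colours end at -2 and 2. In dendritic cells the columns for vehicle replicate 1 and treated replicate 4 are mostly blue and that for treated replicate 2 mostly red, whereas macrophages are mostly below monocytes; vehicle replicate 1 also has the lowest total of listed genes, which is not adjusted for here.

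Promoter windows were examined for the element CACGTG, the E-box core of the CLEAR motif that TFEB is known to bind, because the members called in dendritic cells could be compared with those that were not. RefSeq windows (GRCm38.p6) were found for 38 of the 47 genes. CACGTG, which reads the same on both strands, occurred within 250 bases before to 50 bases after a start in 13 of 38 (34.2%), against 8.09% of all 27025 genes with a window and 12.1% of those tested in dendritic cells. The longer form GTCACGTG, which contains it and was searched on both strands, occurred in 8 of 38 (21.1%) against 2.55% of all genes and 4.98% of those tested, and the palindrome TCACGTGA in 7 (18.4%) against 1.12% and 2.33%. All 3 genes raised by PAM3CSK4 held CACGTG, as did 10 of the 35 with a window that were not called. This comparison rests on 3 genes and was not tested. The Atp6v0d1 and Atp6v1a calls were lost in 7 and 11 of 17 alternatives. Of the genes lower in macrophages 4 of 16 held it, and of the 2 higher there neither did. Members not called between macrophages and monocytes held it in 9 of 20, and all genes tested there in 11.9%. A match describes these letters in this window and is not a measured site. The windows below show the 3 raised genes, Lamp1 with 4 copies, and Npc2 and Ctso with none; each runs from 250 bases before to 20 bases after the start, 5′ to 3′ on the gene's strand, with CACGTG in capitals.
Ctsl: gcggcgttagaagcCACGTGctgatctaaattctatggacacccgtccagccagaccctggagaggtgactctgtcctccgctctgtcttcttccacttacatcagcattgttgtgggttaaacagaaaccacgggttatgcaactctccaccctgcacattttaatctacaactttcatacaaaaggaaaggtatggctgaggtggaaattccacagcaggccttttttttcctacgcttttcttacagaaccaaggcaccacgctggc
Atp6v0d1: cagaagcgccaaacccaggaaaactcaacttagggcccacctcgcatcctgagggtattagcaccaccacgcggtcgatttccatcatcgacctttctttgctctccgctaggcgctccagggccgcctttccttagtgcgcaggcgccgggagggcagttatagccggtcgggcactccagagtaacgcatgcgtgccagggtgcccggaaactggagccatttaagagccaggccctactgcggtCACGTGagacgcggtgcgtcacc
Atp6v1a: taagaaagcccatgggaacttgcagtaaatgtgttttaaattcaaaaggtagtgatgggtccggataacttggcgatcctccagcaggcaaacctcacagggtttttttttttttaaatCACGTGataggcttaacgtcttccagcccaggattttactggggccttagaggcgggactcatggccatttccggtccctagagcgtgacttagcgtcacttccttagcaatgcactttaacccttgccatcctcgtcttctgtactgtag
Lamp1: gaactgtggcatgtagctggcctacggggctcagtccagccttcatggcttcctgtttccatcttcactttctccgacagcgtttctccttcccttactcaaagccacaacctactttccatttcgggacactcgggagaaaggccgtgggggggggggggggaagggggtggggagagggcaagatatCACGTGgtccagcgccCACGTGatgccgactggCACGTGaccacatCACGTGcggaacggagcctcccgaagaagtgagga
Npc2: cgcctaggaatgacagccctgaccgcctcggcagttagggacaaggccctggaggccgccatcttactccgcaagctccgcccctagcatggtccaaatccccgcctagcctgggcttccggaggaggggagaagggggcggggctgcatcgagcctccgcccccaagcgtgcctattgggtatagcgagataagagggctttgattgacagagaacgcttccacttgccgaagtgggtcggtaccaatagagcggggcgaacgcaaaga
Ctso: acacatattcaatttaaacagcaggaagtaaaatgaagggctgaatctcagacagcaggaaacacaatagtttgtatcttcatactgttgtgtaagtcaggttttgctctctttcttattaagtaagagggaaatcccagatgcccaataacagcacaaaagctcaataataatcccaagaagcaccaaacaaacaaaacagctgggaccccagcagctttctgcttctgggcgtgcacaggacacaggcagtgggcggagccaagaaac
These windows lie at chr13:64370501-64370770 (Ctsl, minus), chr8:105566045-105566314 (Atp6v0d1, minus), chr16:44139240-44139509 (Atp6v1a, minus), chr8:13158911-13159180 (Lamp1, plus), chr12:84773093-84773362 (Npc2, minus) and chr3:81932351-81932620 (Ctso, plus). The element began 236 bases before the start in Ctsl, 131 before in Atp6v1a and 3 before in Atp6v0d1.

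The other genes of the pathway in dendritic cells gave few calls, as did all genes tested. Of these 2.82% were called higher and 2.29% lower, and 24.9% passed at an unadjusted p under 0.05. Of 13 further V-ATPase subunits and assembly or partner genes tested none was called, at an adjusted p, and 2 passed at an unadjusted p under 0.05. The nearest was Dmxl2, a rabconnectin that binds the V1 sector, at 4.08 to 9.89 CPM with vehicle and 7.12, 50.8, 24.7 and 60.4 CPM with PAM3CSK4 (log2 change 1.96 ± 0.54, adjusted p = 0.0560). Among 3 cysteine protease inhibitors tested, Cst3 (cystatin C, which inhibits cathepsins) fell from 399, 636, 640.1 and 695 CPM to 242, 170.4, 225 and 95.6 CPM, with no overlap (-1.74 ± 0.31, adjusted p = 0.0105). Cst7 (cystatin F) read 2.90 to 7.64 and 8.72 to 21.6 CPM (1.04 ± 0.34, adjusted p = 0.0910).

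Of 44 other hydrolases tested 1 was called in each direction, 25 had a change below 0 (median -0.12), and treated libraries lay entirely below vehicle for 8 and above for 2. As shares these were 56.8% below 0, 18.2% entirely below and 4.55% entirely above. Over all genes tested they were 32.7%, 4.68% and 10.1%. Galns, a sulfatase that acts on keratan sulfate, rose from 6.18 to 11.1 CPM with vehicle to 16.5, 18.8, 17.2 and 45.6 CPM with PAM3CSK4 (1.34 ± 0.32, adjusted p = 0.0358). Of 28 other membrane and transport genes Slc15a3, a lysosomal peptide and histidine transporter, rose from 18.8 to 33.0 CPM to 49.3, 184, 188 and 54.5 CPM (1.81 ± 0.43, adjusted p = 0.0333). None of 21 genes for enzyme sorting and TFEB control was called, and 3 passed at an unadjusted p under 0.05; of these Igf2r, the mannose 6-phosphate receptor that delivers hydrolases, had a change of 0.92 ± 0.34 (adjusted p = 0.130).

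Macrophages differed from monocytes across far more of the set. At baseline 19 of the 47 genes were lower in macrophages and 2 were higher (same test within the monocyte and macrophage table, 12188 genes). Of all genes tested 20.2% were called, 7.42% as lower and 12.8% as higher, so the members' share of 40.4% lower was above the background and their 4.26% higher below it. The median log2 change of the 47 was -0.70, beside 0.10 over all genes. Libraries of the groups did not overlap for 27 genes that were lower and 4 that were higher, against 13.8% and 20.4% of all genes. Macrophages held more plasma cell, B, NK, T and erythroid marker RNA than monocytes and differed in neutrophil markers in both directions, and their part in these differences was not tested. All 47 genes together made up 0.653% to 0.748% of listed CPM in macrophages and 1.17% to 1.60% in monocytes.

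Among the lower genes the smallest p-values belonged to Cd68, Lamp1, Ctsc, Ctsa and Ifi30. Cd68 (macrosialin) measured 137, 79.8 and 89.5 CPM in monocytes and 23.8, 23.5 and 22.3 CPM in macrophages, a 4.40-fold lower mean (change of -2.05 ± 0.26, adjusted p = 0.000189). Lamp1, a main glycoprotein of the lysosomal membrane, measured 453.9, 450.4 and 470.4 CPM and then 113, 81.2 and 142 CPM (4.08-fold lower, -2.06 ± 0.26, adjusted p = 0.000205). The groups stood far apart for both, and the monocyte libraries lay close together for Lamp1. Ifi30 measured 188, 103 and 166 CPM and then 30.0, 26.7 and 48.4 CPM (4.34-fold lower, -2.09 ± 0.30, adjusted p = 0.000465). Of the other proteolysis genes Lgmn (-0.67 ± 0.42) and Tpp1 (-0.20 ± 0.25) overlapped and were not called. Npc2 measured 327, 232 and 276 CPM and then 101, 101 and 113 CPM (-1.39 ± 0.24, adjusted p = 0.00142).

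Of the 12 cathepsins 7 were lower and 1 was higher. Ctsc measured 219, 217 and 214 CPM in monocytes and 52.4, 48.1 and 79.5 CPM in macrophages (3.61-fold lower, log2 change -1.87 ± 0.25, adjusted p = 0.000283). Ctsa (cathepsin A, a serine carboxypeptidase that also protects Neu1) measured 269, 151 and 208 CPM and then 46.99, 39.1 and 61.0 CPM (4.26-fold lower, -2.05 ± 0.28). Ctsh, an aminopeptidase, measured 198, 151 and 157 CPM and then 33.0, 31.8 and 64.3 CPM (3.92-fold lower, -2.01 ± 0.29). None of these 3 overlapped between groups, and macrophage replicate 3 was the highest macrophage library for each. Ctss measured 446, 334 and 256 CPM and then 72.3, 72.6 and 129 CPM (3.78-fold lower, -1.92 ± 0.30, adjusted p = 0.000807). Ctsz measured 218, 105 and 159 CPM and then 56.0, 43.9 and 69.8 CPM (-1.45 ± 0.30), and Ctsb (cathepsin B) 547, 348 and 388 CPM and then 201, 141 and 236 CPM (-1.15 ± 0.28, adjusted p = 0.0127). The Ctsb call was lost without macrophage replicate 2 (adjusted p = 0.0599).

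Ctsk was low in both groups, at 24.2, 8.73 and 2.14 CPM in monocytes and 0.628, 0.206 and 2.77 CPM in macrophages (-2.23 ± 0.64, adjusted p = 0.0272). The groups overlapped, and the call was lost in 7 of 15 alternatives, among them leaving out monocyte replicate 2 or macrophage replicate 1 or 2 (adjusted p up to 0.157). Ctso (cathepsin O) went the other way, from 9.14, 5.57 and 5.72 CPM to 18.2, 15.9 and 29.4 CPM with no overlap (1.49 ± 0.32, adjusted p = 0.00558). Ctsf at 0.769 to 2.46 and 3.17 to 5.86 CPM and Ctse at 5.005 to 9.75 and 11.2 to 80.3 CPM also lay entirely above monocytes but did not pass (adjusted p = 0.0642 and 0.0810). Ctsd (cathepsin D, the main aspartic protease) overlapped fully at 235, 124 and 177 CPM and 240, 149 and 185 CPM (0.12 ± 0.29, and just below 0 with median centring). Ctsl, raised by PAM3CSK4 in dendritic cells, stood at 11.8, 13.8 and 12.04 CPM in monocytes and 7.81, 5.97 and 8.48 CPM in macrophages (-0.70 ± 0.27, adjusted p = 0.101).

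**Figure D5:**
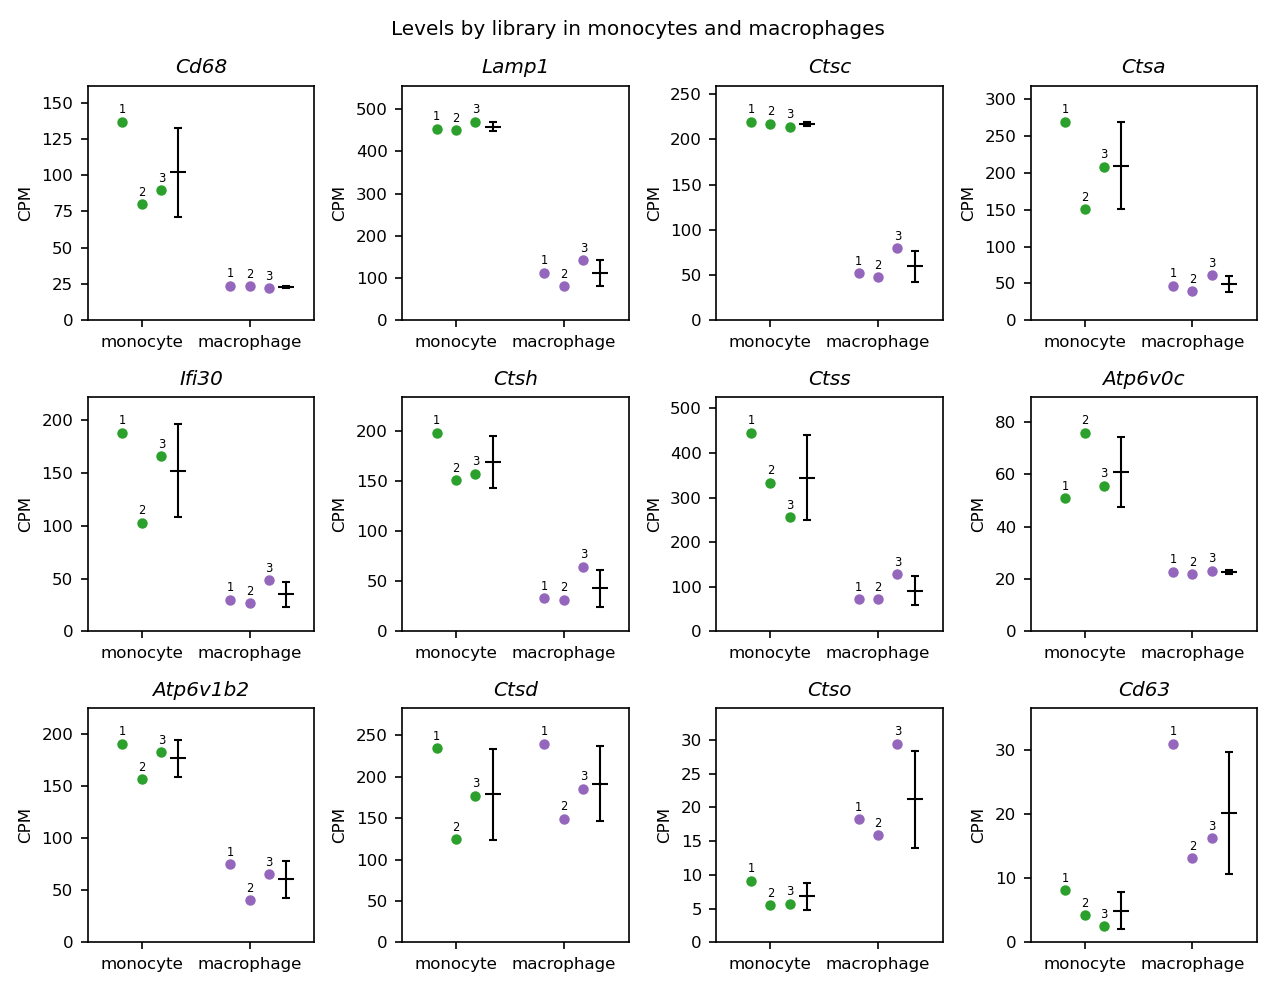
CPM (y axes, from 0) of 12 genes in each monocyte and macrophage library, with replicate numbers beside the points; black bars give the mean and SD of the 3 libraries. The 9 genes from Cd68 to Atp6v1b2 lie lower in macrophages without overlap, Ctsd overlaps, and Ctso and Cd63 lie higher.

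Of the 16 V-ATPase genes 4 were lower in macrophages and none higher, and 12 had a change below 0. Atp6v0c, the ring proteolipid, measured 50.9, 75.7 and 55.5 CPM in monocytes and 22.8, 21.8 and 23.1 CPM in macrophages (change of -1.37 ± 0.24 on the log2 scale, adjusted p = 0.00190). Atp6v1b2, the B subunit of the V1 head, measured 191, 157 and 183 CPM and then 75.4, 40.7 and 65.5 CPM (-1.57 ± 0.27, adjusted p = 0.00145). Neither overlapped between groups. Atp6v1a measured 79.4, 116 and 98.2 CPM and then 57.0, 35.4 and 59.1 CPM (-0.96 ± 0.27, adjusted p = 0.0251), and Atp6ap1, an accessory glycoprotein, 122, 100.01 and 94.5 CPM and then 62.7, 45.1 and 65.1 CPM (-0.87 ± 0.24, adjusted p = 0.0247). Both were separated by smaller gaps. The call for Atp6v1a was lost without a filter, and without monocyte replicate 3 or macrophage replicate 1 or 2 (adjusted p up to 0.0972), and that for Atp6ap1 without monocyte replicate 1 or 3 or macrophage replicate 1 or 2 (up to 0.0918).

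The remaining subunits were closer between the cell types. Atp6v0d1 measured 60.1, 48.2 and 60.7 CPM in monocytes and 39.3, 28.8 and 36.1 CPM in macrophages, without overlap (-0.69 ± 0.24, adjusted p = 0.0667), while Atp6v0d2 was low in both, at 6.15, 4.67 and 0.188 CPM and 1.47, 0.866 and 0.505 CPM (-0.93 ± 0.56, adjusted p = 0.296). Atp6v0a1, Atp6v1f, Atp6v1h and Atp6ap2 had changes between 0.06 and 0.12 as deposited, and below 0 with median centring (Atp6v1h also with quantile normalization). The other 6, Atp6v0b, Atp6v0e, Atp6v1c1, Atp6v1d, Atp6v1e1 and Atp6v1g1, had changes between -0.22 and -0.64. None of these 12 genes was called.

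Hydrolases and their activators followed in part. Grn (progranulin, the precursor of lysosomal granulins) measured 349.95, 215 and 341 CPM in monocytes and 107, 77.9 and 89.7 CPM in macrophages (-1.69 ± 0.27, adjusted p = 0.000831). Hexa, the alpha subunit of beta-hexosaminidase, measured 202, 136 and 161 CPM and then 66.4, 59.1 and 53.6 CPM (-1.45 ± 0.24, adjusted p = 0.00118). Psap measured 3790, 1953 and 2989 CPM and then 1231, 1386 and 832 CPM (-1.32 ± 0.36, adjusted p = 0.0212). None of the 3 overlapped, but the Psap call was lost under quantile normalization, where its change was -0.34, without a filter, and without monocyte replicate 1 or 3 or macrophage replicate 1 or 3 (adjusted p up to 0.130 with a library left out). Lipa, Gusb, Neu1 and Gaa had changes from -0.72 to 0.35 and were not called.

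Cd63, a tetraspanin of lysosomes and secretory granules, was the other gene higher in macrophages, from 8.15, 4.23 and 2.57 CPM to 31.1, 13.2 and 16.3 CPM (1.84 ± 0.40, adjusted p = 0.00644). The groups did not overlap, macrophage replicate 1 was the highest, and without it the adjusted p was 0.0535. Lamp2, Scarb2 and Npc1 had changes from -0.70 to -0.87, and none of them was called although their libraries did not overlap. Tfeb measured 46.4, 16.5 and 40.8 CPM and then 13.5, 12.9 and 16.5 CPM (-1.10 ± 0.36, adjusted p = 0.0492), where monocyte replicate 2 lay at the level of macrophages. That call was lost in 10 of 15 alternatives, including the loss of monocyte replicate 1 or 3 or of any macrophage library (adjusted p up to 0.169). Mcoln1 measured 14.7, 10.2 and 15.2 CPM and then 9.39, 9.60 and 10.2 CPM (-0.40 ± 0.28).

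Of the 21 calls 14 held in every alternative tried, namely Atp6v0c, Atp6v1b2, Ctsc, Ctsh, Ctso, Ctss, Ctsz, Ctsa, Ifi30, Hexa, Grn, Lamp1, Cd68 and Npc2. Macrophage replicate 2 was the lowest macrophage library for 40 of the 47 genes but had the lowest total of listed genes (416945 CPM against 488270 and 542012), and as a share of it the 47 genes were highest there (0.748% against 0.653% and 0.686%). Monocyte replicate 1 was the highest monocyte library for 30.

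Other genes of the pathway changed in both directions between these cell types. Of 22 genes for enzyme sorting and TFEB control 2 were higher and 4 lower in macrophages (9.09% and 18.2%), beside 12.8% higher and 7.42% lower of all genes tested. Igf2r measured 14.0, 2.84 and 2.91 CPM in monocytes and 81.0, 47.4 and 108 CPM in macrophages (3.64 ± 0.49, adjusted p = 0.000283), whereas the sorting receptor Sort1 measured 241, 259 and 297 CPM and then 117, 58.5 and 77.0 CPM (-1.70, adjusted p = 0.00110). The receptors thus moved in opposite directions without overlap. Tfec and Tfe3, relatives of Tfeb, were lower as well (-1.57 and -1.23, adjusted p = 0.00836 and 0.0108).

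Of 13 further V-ATPase genes 1 was higher and 1 lower (7.69% each), beside 12.8% and 7.42% of all genes tested. The higher was Dmxl1, a rabconnectin, at 33.1 to 59.4 and 80.2 to 106 CPM (1.17, adjusted p = 0.00939). The lower was Tcirg1, the a3 subunit known from osteoclasts, at 61.3 to 175 and 47.8 to 54.8 CPM (-1.22, adjusted p = 0.0301). Of 44 other hydrolases 2 were higher and 5 lower (4.55% and 11.4%). The higher were Ctsw, a cathepsin known from cytotoxic lymphocytes, at 0.541 to 1.185 and 7.22 to 18.9 CPM, and Ppt1, a palmitoyl thioesterase, at 46.5 to 80.4 and 124 to 399 CPM. The NK and T cell markers were also higher in the macrophage libraries, and their part in the Ctsw difference was not tested. Pld4, an exonuclease of endolysosomes, and Hgsnat, an acetyltransferase of heparan sulfate breakdown, were lower (-2.21 and -1.95). Of 29 other membrane and transport genes 2 were higher and 8 lower (6.90% and 27.6%). Among them were Mcoln2 at 0.375 to 1.22 and 7.72 to 30.7 CPM (3.04, adjusted p = 0.000483) and Slc15a3 at 13.6 to 33.0 and 3.79 to 9.63 CPM (-1.93, adjusted p = 0.00444). Of 3 cystatins tested 1 was lower, Cstb (stefin B), at -1.05.

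Levels of different genes compare only per length. Divided by the length of the principal GENCODE transcript, the mean level of Psap was the highest of the members with a length in every group, at 999.8 CPM per kb in vehicle dendritic cells, 640.4 in treated ones, 1096 in monocytes and 433 in macrophages. Ifi30 has no such length; its summed exons of 981 bases, at least as long as any of its transcripts, give 293, 271, 155 and 35.7 CPM per kb in that order. Among the genes with a length Ctss came next in vehicle dendritic cells and monocytes (221 and 255 CPM per kb), Lgmn in treated dendritic cells (235) and Ctsd in macrophages (90.02). Among V-ATPase genes Atp6v1b2 was the highest in vehicle and treated dendritic cells and in monocytes (53.1, 65.8 and 62.6), and Atp6v1f in macrophages (39.7). These are means of 4 or 3 libraries with the spreads given above, and neighbouring ranks were not tested.

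Dendritic cell levels come from their own table and are set beside the other types without a test. The monocyte and macrophage table holds 3 dendritic cell columns of its own, which could not be tied to labelled samples and were not used. Ctsk stood at 93.3 to 244 CPM in vehicle dendritic cells, 2.14 to 24.2 in monocytes and 0.206 to 2.77 in macrophages. Atp6v0d2 stood at 18.9 to 77.8, 0.188 to 6.15 and 0.505 to 1.47 CPM in that order, and Lgmn at 118 to 182, 28.3 to 72.2 and 15.4 to 42.7 CPM. For each of these 3 genes the vehicle dendritic cell libraries lay above all monocyte and macrophage libraries. The same held for Ctsh (222 to 282, 151 to 198 and 31.8 to 64.3 CPM in the same order) and Ifi30 (216 to 351, 103 to 188 and 26.7 to 48.4 CPM). How many of all genes separate in this way was not counted. Lamp1 ran the other way for monocytes, at 115 to 206, 450.4 to 470.4 and 81.2 to 142 CPM. For 18 of the 47 genes, Ctsl, Ctsc, Lamp1 and Atp6v1b2 among them, another annotated gene overlaps the span from start to end, introns included. Whether exons overlap was not examined, and the labels give no strand setting, so how far this touches their reads is not known.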

How the data were processed

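Bulk RNA sequencing of 14 libraries was analysed. Per the labels' protocols, total RNA came from silica columns and ribosomal RNA was depleted before library preparation. Per the submitters' processing notes, the build was mm10 and the tools STAR 2.5.3a and Partek; the labels give neither annotation nor strand setting. The authors deposited values named FPKM, which were treated as CPM because, less 0.0001, 66.3% to 90.7% of low values (up to 50 steps) per library lay within 0.05 of a whole multiple of 1 step, against 6.47% to 11.6% with a step 7% longer. The share was 75.1% to 89.1% for genes with short exon length and 57.8% to 97.1% for long ones. The test had been planned for either unit. A further 3 columns, named as dendritic cells in the monocyte and macrophage table, could not be tied to labelled samples and were not used.

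Genes with 1 CPM or more in at least 4 (dendritic cells) or 3 libraries (macrophages, monocytes) were tested with limma 3.58.1 in R 4.3.3 (lmFit, eBayes with intensity trend, two-sided) on log2(CPM + 1), with Benjamini-Hochberg adjustment over all genes of a table and a threshold of 0.05. Changes on this scale understate those of low genes. Simulated data held 200 changed genes, drawn only from genes with a mean log2(CPM + 1) above 4, so lower genes are not covered. For dendritic cells, with 11377 genes, 31% of log2 changes of 1 and 85% of 2 were recovered. For macrophages against monocytes, with 12188 genes, the shares were 17% and 73%. In the data themselves 582 and 2468 genes were called, more than the 200 changed here, so these shares may not carry over. Members were read from the fits over all genes. Members and lists were chosen with earlier results of these data known. Every library's value is given for called members, or for the 12 with the smallest p where fewer passed, with the relatives Atp6v0d2, Ctsk and Ctss added; of other lists up to 4 genes by p are named, except that 1 result among the other hydrolases is not reported here. Alternatives were the pseudocount (0.1, 0.5), the filter, the scaling, the trend, a replicate block and leaving out each library. Promoter windows are RefSeq's, matched by symbol.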

Additional observations from a re-analysis of the deposited data

Results flagged for a closer look

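Of 94 gene and group pairs of dendritic cells, 7 had a library far from the other 3, by a gap beyond Dixon's 95% critical share of the group's range; chance flags about 1 in 20. Replicate 2 accounted for 4 of them. With vehicle, Ctsd read 375 CPM in replicate 2 against 181 to 204 in the others, and Cd63 read 28.2 CPM there against 9.63 to 11.5. With PAM3CSK4, Ctsd read 549 CPM in replicate 2 against 248 to 281, and Atp6ap1 87.7 CPM against 52.0 to 56.9. Vehicle replicate 3 stood apart for Atp6v0d2 at 77.8 CPM against 18.9 to 28.9. Treated replicate 4, which also held the most neutrophil marker RNA, was high for Ctse at 53.0 CPM against 2.59 to 3.66 and low for Npc2 at 95.5 CPM against 184 to 192. Monocytes and macrophages, with 3 libraries each, were not examined in this way.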

How the results depend on the processing

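The count of 3 called lysosomal genes in dendritic cells, all higher, was 0 without a filter on low values, which tests 24980 genes, and 2 when genes at the lowest value in every library were then left out, an alternative chosen after seeing the data. It was 5 with the replicate block and 1 to 5 with a library left out: 1 without any vehicle library or treated replicate 2 or 3, 5 without treated replicate 1 and 3 without treated replicate 4. Lower members numbered 0 as reported, 1 when rescaled to a common total, 2 with median centring and 1 with quantile normalization. Among all genes the 582 calls became 32 without a filter, 166 with the added filter, 976 with the block and 184 to 1008 with a library left out. The share of calls that were higher was 55.2% as deposited and 41.5%, 29.9% and 35.1% under the 3 scalings. In macrophages against monocytes the 21 calls ranged from 15 to 23 with a library left out, 1 to 3 of them higher and 14 to 20 lower, with 1 higher without macrophage replicate 1, and stayed between 18 and 28 otherwise. The 2468 calls of all genes became 1699 to 3364 with a library left out, and the share higher moved from 63.4% to 73.3%, 51.3% and 44.8%; the scalings shifted the median change of all genes by 0.16, -0.12 and -0.12. Causes were not tested.

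Of the alternatives' values for single genes, 1092 kept their side of the threshold, 92 lost it, 39 gained it and 0 turned direction while called. The block rests on a number alone: deviations of same-numbered libraries correlated by -0.12 to 0.30 in dendritic cells and 0.08 to 0.18 in macrophages and monocytes, where every library, unlike in dendritic cells, correlated best with its own number. With the block Ctsc and Lgmn were also called in dendritic cells (adjusted p = 0.0373 and 0.0423), and 22 members and 2609 genes in macrophages against monocytes. In the simulated data, with 4 or 3 libraries a group, most changes of 1 on the log2 scale were not called. Those data held fewer changed genes than were called here, so this need not carry over. Between macrophages and monocytes Atp6v1a (-0.96), Ctsb (-1.15) and Tfeb (-1.10) were called, while Ctsf (0.99) and Atp6v0d2 (-0.93) were not.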

Other observations

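Adgre1 and Spic, markers of the macrophage list, peaked in the dendritic cell library that was also highest for most lysosomal genes. With PAM3CSK4, Adgre1 read 104, 709, 228 and 65.3 CPM in replicates 1 to 4 and Spic 14.96, 143, 46.2 and 19.1 CPM. With vehicle they read 43.0 to 98.8 and 5.70 to 8.52 CPM. Acp5, a lysosomal acid phosphatase known with Ctsk and Atp6v0d2 from osteoclasts, was like them highest in replicate 3 of each group. Its lowest treated library was replicate 4, whereas theirs was replicate 2. Acp5 read 113, 112, 198 and 159 CPM with vehicle and 282, 478, 676 and 126 CPM with PAM3CSK4. In their change with treatment most markers of the macrophage list went the other way. Of 13 tested 9 had a change below 0, and Cd163, Mrc1 and Axl were lower with PAM3CSK4 (-3.12, -3.78 and -2.17 on the log2 scale). Marco rose, from 0.185 to 1.69 CPM to 15.7, 103, 89.6 and 103 CPM. Among treated libraries C1qa, C1qb, C1qc and Mrc1 were also highest in replicate 2 (196, 346, 223 and 62.8 CPM), while Cd163 and Axl were not. Adgre1, Spic, Acp5 and the other markers named here were singled out after their values were seen.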
